A study of Sus scrofa with 6 samples.

Results

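SAMD4A, RIC1, B3GAT3, PEX13, NCOA1, ACTN4, TRAPPC8 and STT3A are 8 genes of pig longissimus dorsi (LD) muscle in which at least 1 transcript differed in level between pigs with high and low intramuscular fat (IMF). They were chosen from the values described here: a difference of 1 transcript between the groups beside a gene that was not called different. The levels, the shares and the group differences given for them are therefore descriptions, with no test. The genes are 8 of the 16554 gene names with a symbol in the deposited table, and their transcripts are 52 of its 83119 transcripts. Of the 52, 45 were Ensembl transcripts and 7 were assembled by the authors (TCONS names, and the names ending in OT).

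The S-H group was 3 Laiwu pigs with extremely high IMF content (LW63, LW70 and LW119), and the S-L group was 3 with extremely low IMF content (LW82, LW88 and LW90). Every animal was a castrated male of the same breed, none had a genetic change or an experimental treatment, and their ages were not given in the sources used here. LD muscle taken at the thoracolumbar junction gave 1 ribosomal RNA-depleted, strand-specific library per pig, so a replicate was a pig. Because the pigs were picked as extremes of a larger herd sample and not assigned to a diet or line, anything else that differed between these few animals cannot be told apart from IMF.

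A pig gene can give several transcripts that start at different promoters, skip or keep exons, or end at different sites, and these can encode the same protein, a shorter one or none. A change from one transcript to another can leave the level of the gene as it was, and is then missed when the transcripts are added up. SAMD4A (Smaug) is an RNA-binding repressor of messenger RNAs, and NCOA1 (SRC-1) is a coactivator of nuclear receptors. RIC1 is part of the exchange factor for the Golgi GTPase RAB6, TRAPPC8 is a subunit of the TRAPPIII tethering complex, B3GAT3 adds the glucuronic acid that completes the linker of glycosaminoglycan chains, and STT3A is a catalytic subunit of the oligosaccharyltransferase that N-glycosylates proteins. PEX13 is a membrane component of the peroxisomal import machinery, and ACTN4 is a non-muscle alpha-actinin that cross-links actin filaments.

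Transcript levels were FPKM, fragment numbers scaled to transcript length and to library size. A gene's level was the sum over its transcripts, and a transcript's share was its percent of that sum in the same pig. The read depth behind single values is unknown, as FPKM holds no counts, so no counting interval is given. With every transcript put on the FPKM scale, as described below, the values summed to between 638536 and 846661 FPKM per pig. Between 44552 and 48568 transcripts were above 0. Skeletal muscle markers were abundant: of 10 listed 6 were found, none was called, and their summed level was 16262 to 22198 FPKM in S-H and 14437 to 24307 FPKM in S-L. Of 10 adipocyte markers 9 were found, none of them at 0 in all pigs, and 6 were called higher in S-H. Their summed level was 462 to 1339 FPKM in S-H against 256 to 380 FPKM in S-L. No marker of endothelial cells, fibroblasts, leukocytes, erythrocytes, smooth muscle or Schwann cells was called. The part that more adipocytes in the S-H samples had in the transcript differences below was not tested, and in bulk muscle fewer cells of a type and less RNA per cell cannot be told apart.

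None of the 8 gene sums was called different between S-H and S-L. A call required that limma on log2(FPKM + 0.1) gave a p below 0.01 and a log2 fold change of 1 or more in size, which 1.26% of the 12120 genes tested met (1.01% higher and 0.256% lower in S-H). No gene of the table passed an adjusted p of 0.05, the lowest being 0.0931. B3GAT3 was the 1 gene of the 8 whose sums did not overlap between the groups, a property of 14.4% of all genes tested. It was at 8.14, 7.35 and 8.41 FPKM in LW63, LW70 and LW119 and at 8.83, 9.52 and 10.8 FPKM in LW82, LW88 and LW90, a log2 fold change (S-H minus S-L, here and throughout) of -0.28 (SE 0.22). Each S-L pig was a little above each S-H pig. As the genes were chosen for the lack of a gene-level difference, nothing is read from these counts.

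The other gene sums overlapped. SAMD4A was at 9.87, 8.08 and 14.1 FPKM in S-H and 11.2, 20.6 and 10.3 FPKM in S-L (log2 fold change -0.36, SE 0.33). For RIC1 the sums were 12.9, 9.46 and 11.4 FPKM against 16.1, 10.3 and 13.2 FPKM, with a log2 fold change of -0.22 (SE 0.26). PEX13 showed a narrow range, 13.5, 12.1 and 12.2 FPKM in S-H and 12.9, 15.9 and 14.5 FPKM in S-L (-0.19, SE 0.22). In all 3 genes the highest pig was an S-L pig, by a margin smaller than the range within S-L. NCOA1 was at 6.66, 6.83 and 9.21 FPKM in S-H and 9.64, 5.99 and 8.71 FPKM in S-L (-0.09, SE 0.27). ACTN4 was at 8.12, 5.94 and 11.0 FPKM against 9.66, 5.99 and 7.63 FPKM (0.09, SE 0.30). TRAPPC8 was at 10.5, 8.77 and 17.2 FPKM against 14.9, 13.3 and 9.86 FPKM (-0.10, SE 0.30). High and low pigs of these 3 genes were mixed over both groups.

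STT3A went against the description of a gene with no change at gene level. Its sums were 22.8, 11.4 and 21.5 FPKM in S-H and 8.37, 16.5 and 5.75 FPKM in S-L, a log2 fold change of 0.93 (SE 0.41). Both LW63 and LW119 were above every S-L pig, while LW70 lay below LW88, so the groups overlapped. The gene was not called, as its log2 fold change was under 1 in size. That value was 1.07 on the TPM scale and ran from 0.59 to 1.34 when 1 pig was left out. The median log2 fold change over all genes tested was 0.21, so 7 of the 8 genes lay below that median and STT3A above it. That median was 0.34 on the TPM scale and 0.07 with median-ratio size factors, so the sign of a small gene-level difference depends on the scaling, while a share within a pig does not.

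**Figure D1:**
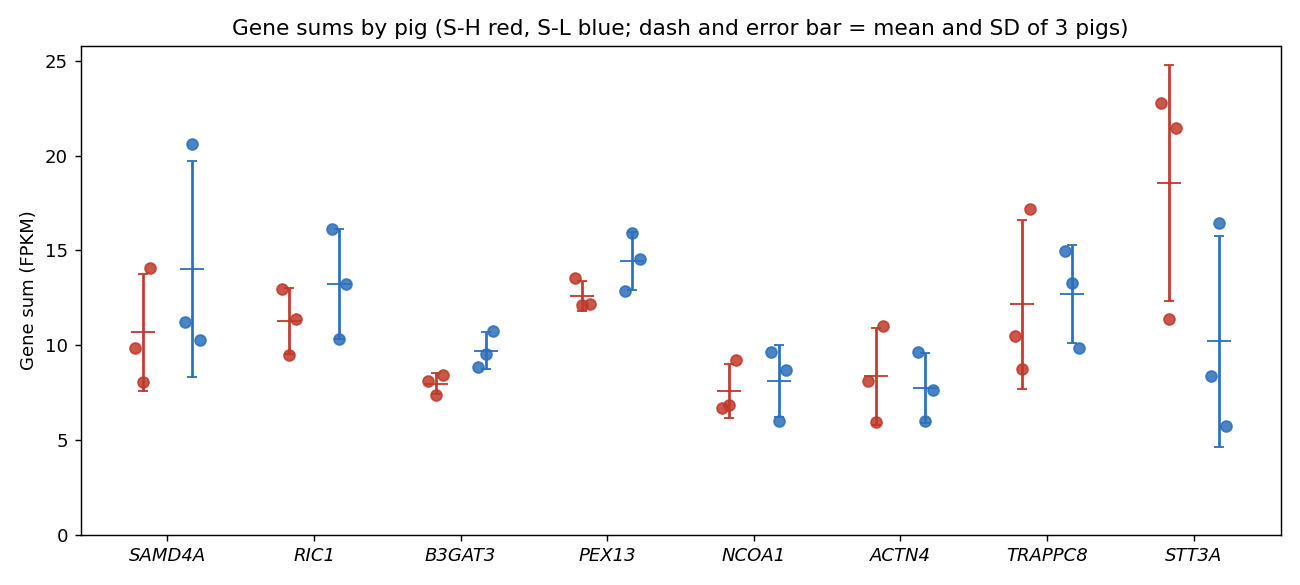
Gene sums of the 8 genes (y axis, FPKM) in each of the 3 S-H pigs (red) and 3 S-L pigs (blue), with dashes for the group means and error bars for the SD. The groups overlap in 7 genes, the S-L pigs sit just above the S-H pigs for B3GAT3, and STT3A has 2 S-H pigs above 20 FPKM.

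Of the 52 transcripts, 7 were listed at 0 in every pig, 1 (PEX13-203) was above 0 in 2 pigs but under the minimum mean of 0.1 FPKM, and 44 were tested. Those 7 were SAMD4A-202, RIC1-205, B3GAT3-202, PEX13-204, NCOA1-204, TRAPPC8-204 and STT3A-202. The fit called 13 transcripts, 5 higher and 8 lower in S-H, beside 1.25% of the 40336 transcripts tested in the series (0.751% higher and 0.496% lower). The FPKM of 16 transcripts did not overlap between the groups, beside 11.3% of all tested. Since this contrast chose the genes, nothing is read from these counts. B3GAT3-205, ACTN4-202 and ACTN4-205 were listed at 0 in all S-H pigs and above 0 in all S-L pigs, and RIC1-204, PEX13-201 and NCOA1-201 the opposite, a pattern that 0.622% of all transcripts tested had. An exact 0 in such a table can be a failed estimate, so these transcripts are described as listed at 0 and no fold change is given for them.

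For each gene the switched transcript was taken as the one with the largest difference of mean share between the groups, and the compensating transcript as the one with the largest difference in the opposite direction. The switched transcript was higher in S-H in 4 genes (B3GAT3, NCOA1, ACTN4 and STT3A) and higher in S-L in the other 4. In 7 genes the pigs' shares of the switched transcript did not overlap (14.6% of the 6706 genes in the series that could be scored), and in 6 neither the switched nor the compensating share overlapped (6.95%). In 6 genes no transcript was the largest of the gene in pigs of both groups (1.8%). The genes that could be scored had a symbol, at least 2 tested transcripts and a mean sum of at least 1 FPKM.

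**Figure D2:**
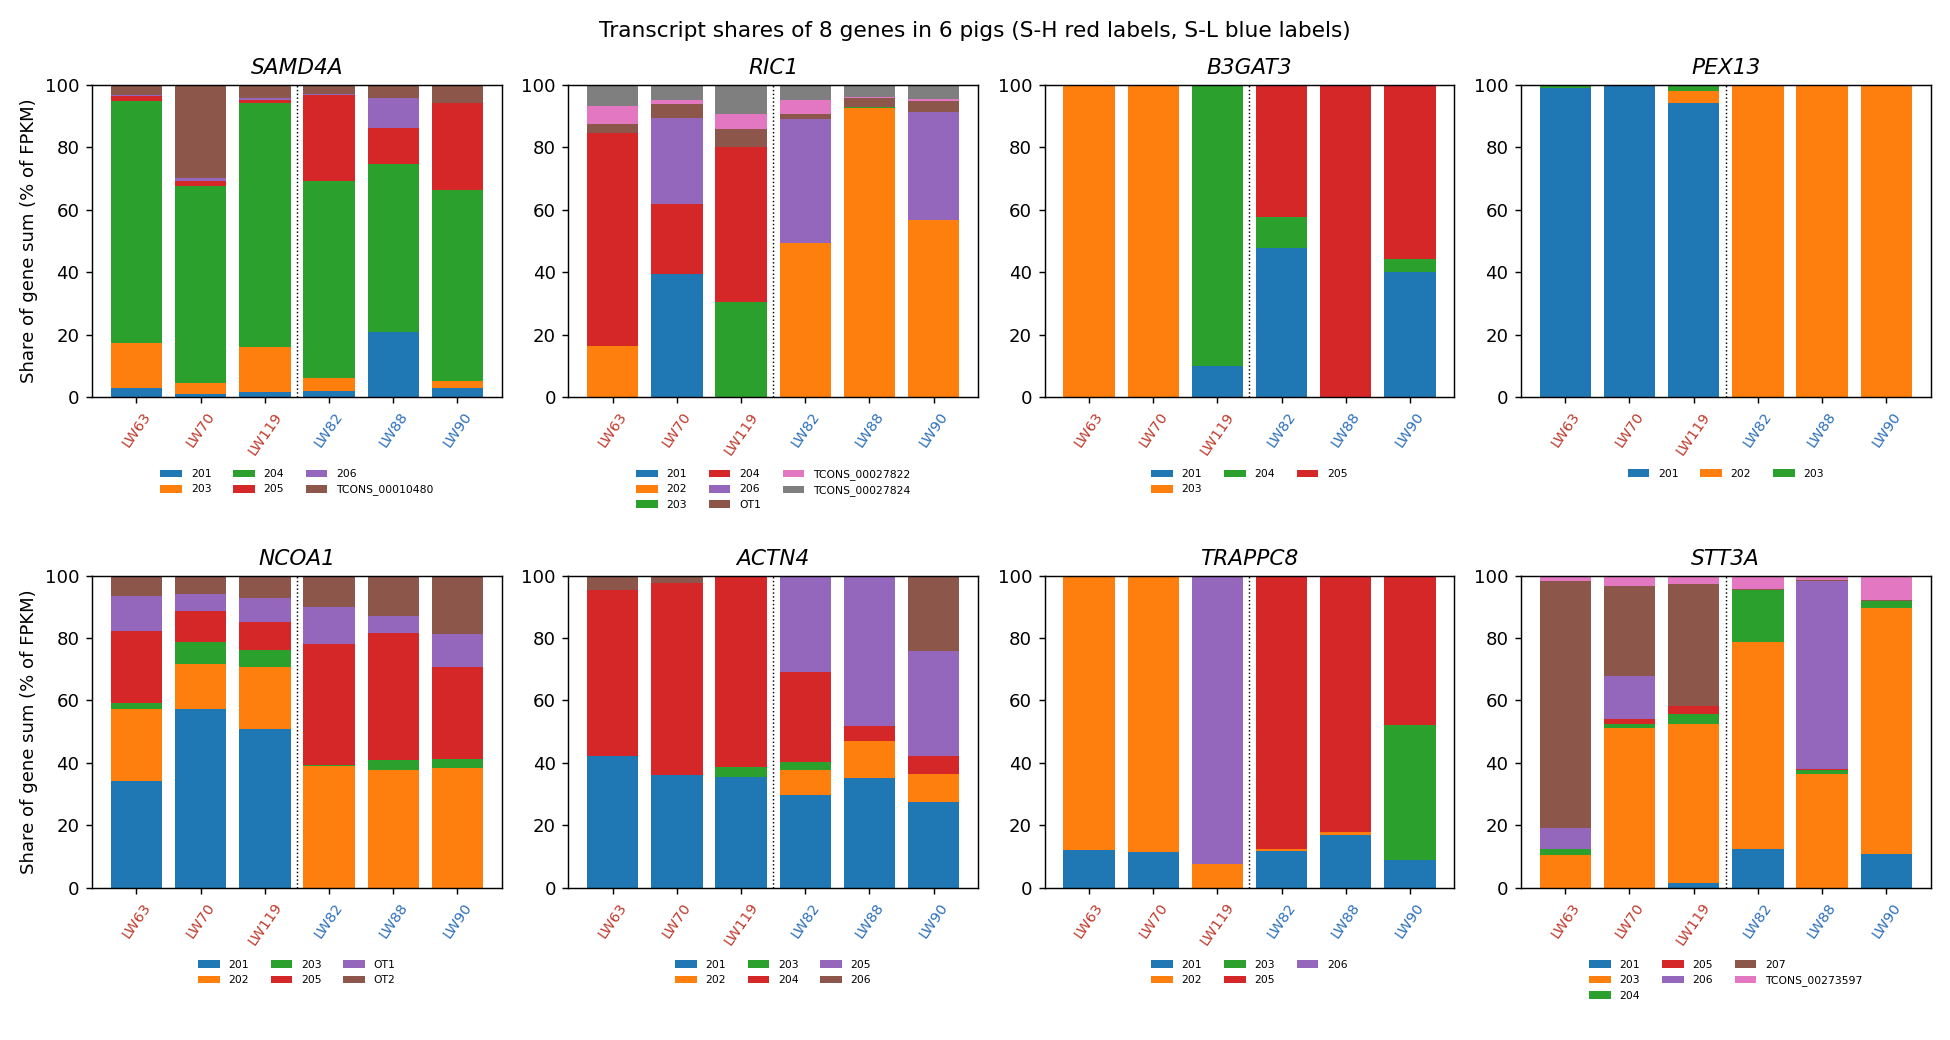
Share of each transcript in its gene's sum (y axis, % of FPKM, stacked to 100) in the 3 S-H pigs (red labels, left of the dotted line) and the 3 S-L pigs (blue labels, right), with 1 panel per gene and numbers in the legends for the Ensembl transcript suffix. PEX13 changes from transcript 201 to 202 as a whole, SAMD4A keeps transcript 204 as the largest in all 6 pigs, and B3GAT3, RIC1, TRAPPC8 and STT3A differ between pigs of 1 group as well.

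PEX13 gave the cleanest exchange. PEX13-201 (chromosome 3, 80753908 to 80791054, Sscrofa11.1) was at 13.4, 12.1 and 11.5 FPKM in LW63, LW70 and LW119 and listed at 0 in all 3 S-L pigs. PEX13-202 (80758779 to 80791056) was at 0.0233, 0 and 0.480 FPKM in S-H and at 12.9, 15.9 and 14.5 FPKM in S-L. The groups were fully apart for both, and their levels mirrored each other. PEX13-201 held 98.9%, 100% and 94.2% of the gene in the S-H pigs, and PEX13-202 held 100% in each S-L pig, a difference of mean share of 97.7 and -98.6 percentage points. The 3 pigs of either group were thus alike: to turn 1 pig's composition into another's, at most 5.83% of the gene sum had to move within S-H and 0 within S-L, but at least 96.1% between the groups. Both transcripts end within 2 bases of each other, and PEX13-201 starts 4871 bases before PEX13-202. Start and before mean the lower genome coordinate, here and below, and end, after and past the higher one. The strand of the genes was not used, so a start in this sense need not be the promoter side. The start of PEX13-201 lies 3562 bases before the RefSeq gene, for which RefSeq lists 1 transcript. PEX13-203, a short transcript at the far end, was at 0.121 FPKM in LW63 and 0.230 FPKM in LW119 and listed at 0 in the other pigs.

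In NCOA1, 1 transcript of the S-H pigs stood against several of the S-L pigs. NCOA1-201 (chromosome 3, 113997236 to 114251078) was at 2.27, 3.90 and 4.67 FPKM in S-H and listed at 0 in all S-L pigs. NCOA1-202 was at 1.55, 0.996 and 1.85 FPKM in S-H and 3.75, 2.25 and 3.33 FPKM in S-L. NCOA1-205 was at 1.53, 0.677 and 0.815 FPKM in S-H and 3.74, 2.44 and 2.58 FPKM in S-L, a log2 fold change of -1.50 (SE 0.40). All 3 transcripts separated the groups, NCOA1-201 with the S-H pigs above and the others with the S-L pigs above. The share of NCOA1-201 was 34.1%, 57.2% and 50.7% in S-H. Against its difference of 47.3 percentage points, NCOA1-205 differed by -22.5, NCOA1-202 by -18.9 and the assembled NCOA1-OT2 by -7.42 percentage points. NCOA1-202 was close to constant within S-L (38.9%, 37.6% and 38.2%) and ranged from 14.6% to 23.3% in S-H. NCOA1-201 starts 1993 bases before NCOA1-202 and 5423 bases before NCOA1-205. NCOA1-203, at 0.0517 to 0.504 FPKM, and NCOA1-OT1, at 0.312 to 1.15 FPKM, overlapped between the groups. NCOA1-OT2, which runs 39943 bases past the end of the RefSeq gene, was at 0.425, 0.409 and 0.654 FPKM in S-H and 0.954, 0.783 and 1.63 FPKM in S-L. It was the only 1 of the 7 assembled transcripts without overlap in FPKM, though it was not called.

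The ACTN4 transcripts that set the groups apart differed at the higher coordinate. ACTN4-204 (chromosome 6, 47493957 to 47565993) was at 4.32, 3.65 and 6.76 FPKM in S-H and 2.79, 0.292 and 0.435 FPKM in S-L, a log2 fold change of 2.52 (SE 0.77) that was not called. ACTN4-205 (47493965 to 47567337) was listed at 0 in all S-H pigs and at 2.98, 2.88 and 2.57 FPKM in S-L. ACTN4-202 was likewise listed at 0 in S-H and at 0.784, 0.709 and 0.676 FPKM in S-L. The last 2 were thus found in S-L pigs alone, and ACTN4-204 was low in LW88 and LW90 but kept 28.9% of the gene in LW82. The mean share of ACTN4-204 was 58.6% ± 4.68 in S-H against 13.1% ± 13.6 in S-L (SD, n = 3). ACTN4-205 compensated with -37.5 percentage points and ACTN4-202 with -9.61. ACTN4-206, with the same start and end as ACTN4-205, was at 0.372 and 0.147 FPKM in LW63 and LW70, 1.84 FPKM in LW90, and listed at 0 in the other pigs. ACTN4-201 was the steady transcript of the gene, at 2.14 to 3.90 FPKM in S-H and 2.10 to 2.86 FPKM in S-L, although its share was higher in every S-H pig (35.4% to 42.1%) than in any S-L pig (27.6% to 35.1%). ACTN4-203 was at or below 0.369 FPKM in all pigs.

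SAMD4A had the smallest difference of the 8, and the same transcript was its largest in every pig. SAMD4A-205 (chromosome 1, 183915512 to 184124438) was at 0.156, 0.130 and 0.160 FPKM in S-H and 3.11, 2.38 and 2.84 FPKM in S-L, a log2 fold change of -3.53 (SE 0.34). SAMD4A-204 was at 7.66, 5.10 and 11.0 FPKM in S-H and 7.10, 11.1 and 6.27 FPKM in S-L. SAMD4A-205 was fully apart between the groups while the FPKM of SAMD4A-204 overlapped almost completely. SAMD4A-205 held 1.44% ± 0.262 of the gene in S-H against 22.3% ± 9.32 in S-L (SD, n = 3). SAMD4A-204 held 73.0% ± 8.52 and 59.4% ± 4.90, a difference of 13.6 percentage points against the -20.9 of SAMD4A-205. Its lowest S-H share, 63.159% in LW70, barely exceeded its highest S-L share, 63.1415% in LW82, so the shares were apart by less than their spread. SAMD4A-205 starts 9 bases after SAMD4A-204 and ends 15684 bases before it. SAMD4A-203 was at 1.42, 0.276 and 2.03 FPKM in S-H and 0.469, 0 and 0.240 FPKM in S-L, and overlapped. Single pigs stood out in the remaining transcripts: LW88 had 4.29 FPKM of SAMD4A-201 and 1.98 FPKM of SAMD4A-206, where no other pig was above 0.298 and 0.0797 FPKM, and LW70 had 2.41 FPKM of the assembled TCONS_00010480.

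RIC1 exchanged transcripts that the table places at the same coordinates. RIC1-202 (chromosome 1, 216382128 to 216494793) was at 2.09, 0 and 0 FPKM in S-H and 7.93, 9.57 and 7.50 FPKM in S-L. RIC1-204 was at 8.84, 2.11 and 5.66 FPKM in S-H and listed at 0 in all S-L pigs. Both separated the groups in opposite directions, with -60.8 and 46.8 percentage points. RIC1-202, RIC1-203 and RIC1-204 share the start and the end, and the table does not give the exons in which they differ. Summed over the 3, the level was 10.9, 2.11 and 9.14 FPKM in S-H and 7.93, 9.59 and 7.51 FPKM in S-L. The summed share was 62.3% ± 34.7 in S-H and 66.3% ± 23.3 in S-L (SD, n = 3), a difference of -3.97 percentage points with overlapping groups. The pigs also differed within their group: LW70 alone had RIC1-201 (3.72 FPKM, 39.4% of the gene), LW119 had 3.48 FPKM of RIC1-203, and RIC1-206 was at 2.62, 6.44 and 4.57 FPKM in LW70, LW82 and LW90 and listed at 0 in the others. The assembled RIC1-OT1, TCONS_00027822 and TCONS_00027824 were above 0 in all pigs, at 0.0402 to 1.04 FPKM, and overlapped in FPKM. In share, TCONS_00027824 was higher in every S-H pig (4.73% to 9.17%) than in any S-L pig (3.93% to 4.67%).

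TRAPPC8 had the same largest transcript in all S-L pigs and different ones within S-H. TRAPPC8-205 (chromosome 6, 115694939 to 115786617) was at 0.00226, 0 and 0.00219 FPKM in S-H and 13.1, 10.9 and 4.73 FPKM in S-L, a log2 fold change of -6.45 (SE 0.47). The S-H values lay far below the pseudocount of 0.1, so the size of this fold change depends on it. TRAPPC8-202 (115693119 to 115786634) was at 9.22, 7.75 and 1.31 FPKM in S-H and 0.101, 0.166 and 0 FPKM in S-L, a log2 fold change of 4.74 (SE 0.82). TRAPPC8-206 had 15.9 FPKM in LW119 and 0 in the other 5 pigs. LW63 and LW70 thus carried the gene on TRAPPC8-202 (87.9% and 88.4%) and LW119 on TRAPPC8-206 (92.4%). TRAPPC8-206 starts and ends within 20 bases of TRAPPC8-205, the transcript of the S-L pigs. With TRAPPC8-205 and TRAPPC8-206 summed, LW119 moved to the side of the S-L pigs, the difference went from -72.5 to -41.7 percentage points, and the groups overlapped. In S-L, LW90 differed from the others by 4.27 FPKM of TRAPPC8-203 (43.3% of the gene), a transcript with the start and end of TRAPPC8-202 that was listed at 0 elsewhere. TRAPPC8-201 was at 0.863 to 2.22 FPKM in every pig but LW119, where it was at 0.00109 FPKM.

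In B3GAT3 the switched transcript overlapped between the groups by name, and its span did not. B3GAT3-203 (chromosome 2, 9119766 to 9125062) was at 8.14 and 7.35 FPKM in LW63 and LW70, where it was the whole gene, and listed at 0 in LW119 and all S-L pigs. B3GAT3-204, which has the same start and end, reached 7.58 FPKM in LW119, 0.878 FPKM in LW82, 0.430 FPKM in LW90 and listed at 0 in the other 3 pigs. B3GAT3-205 (9119800 to 9125061) was listed at 0 in all S-H pigs and at 3.75, 9.52 and 6.01 FPKM in S-L. By name the switched transcript overlapped, because LW119 lacked it. With B3GAT3-203 and B3GAT3-204 summed, the level was 8.14, 7.35 and 7.58 FPKM in S-H and 0.878, 0 and 0.430 FPKM in S-L. The summed share was 96.7% ± 5.66 in S-H and 4.65% ± 5.01 in S-L (SD, n = 3), so the difference went from 66.7 to 92.1 percentage points and the groups no longer overlapped. B3GAT3-201 made up the rest in LW82 and LW90 at 4.20 and 4.31 FPKM, reached 0.824 FPKM in LW119, and had 0 in the remaining pigs. LW88 held 100% of the gene in B3GAT3-205. The starts of these transcripts lie within 144 bases.

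STT3A was the least orderly of the 8. STT3A-207 (chromosome 9, 52726889 to 52754666) was at 18.1, 3.30 and 8.38 FPKM in S-H and 0.0266, 0.0166 and 0.0135 FPKM in S-L, a log2 fold change of 6.08 (SE 0.63). STT3A-203 (52704601 to 52752963) was at 2.40, 5.83 and 10.9 FPKM in S-H and 5.55, 5.97 and 4.53 FPKM in S-L. STT3A-206 was at 1.52 and 1.58 FPKM in LW63 and LW70, 9.92 FPKM in LW88 and listed at 0 in LW119, LW82 and LW90. STT3A-207 was the only transcript of the gene that separated the groups. Its share was 79.3%, 28.9% and 39.1% in S-H and at most 0.317% in S-L, and STT3A-203 offset it by -23.0 percentage points with overlapping groups. In FPKM STT3A-203 offset nothing, as its mean was 6.38 ± 4.28 in S-H and 5.35 ± 0.741 in S-L (SD, n = 3). STT3A-206 and STT3A-207 start and end within 20 bases of each other, and their summed share, 55.9% ± 26.1 in S-H and 20.3% ± 34.7 in S-L (SD, n = 3), overlapped because LW88 had STT3A-206. STT3A-201, STT3A-204, STT3A-205 and the assembled TCONS_00273597 were each at or below 1.38 FPKM and overlapped.

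**Figure D3:**
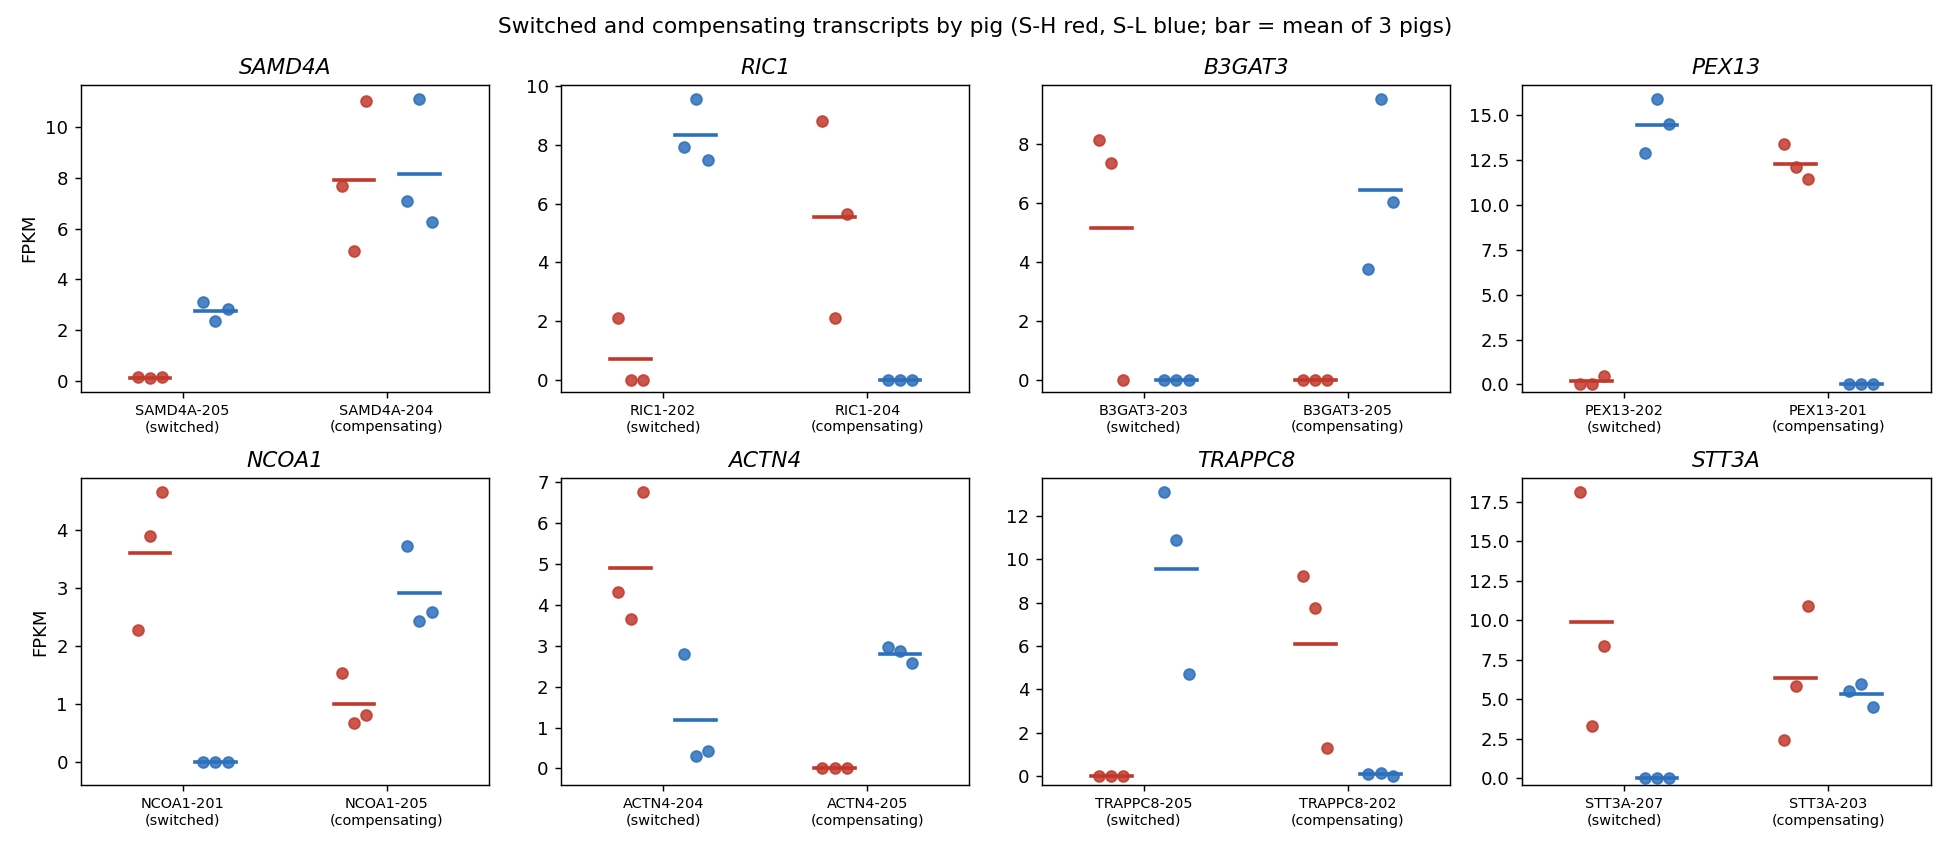
FPKM (y axis, own scale per panel) of the switched and the compensating transcript of each gene in the 3 S-H pigs (red points) and the 3 S-L pigs (blue points), with bars at the group means. In PEX13, RIC1 and TRAPPC8 both transcripts exchange places between the groups, except that LW119 is low for both TRAPPC8 transcripts (0.00219 and 1.31 FPKM). The compensating transcripts of SAMD4A and STT3A have similar FPKM in both groups.

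The pairs differed in where the transcripts part. The switched and compensating transcripts had the same span in 1 gene (RIC1). In PEX13, NCOA1 and TRAPPC8 they differed by 4871, 5423 and 1820 bases at the lower coordinate and by at most 800 bases at the higher one. In ACTN4 and SAMD4A they differed by 8 and 9 bases at the lower coordinate and by 1344 and 15684 bases at the higher one. In B3GAT3 they differed by 34 bases and 1 base, and in STT3A at both ends, by 22288 and 1703 bases. When transcripts of the same start and end were summed, the switched span did not overlap between the groups in 7 genes and both spans did not overlap in 5. With spans within 20 bases summed, both numbers were 5 (SAMD4A, B3GAT3, PEX13, NCOA1 and ACTN4). For B3GAT3 this rests on the limit chosen, as its pair, 34 bases and 1 base apart, was not summed. These summed spans were chosen after the values had been seen. The share of all genes with such spans was not computed, so nothing is read from these counts.

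**Figure D4:**
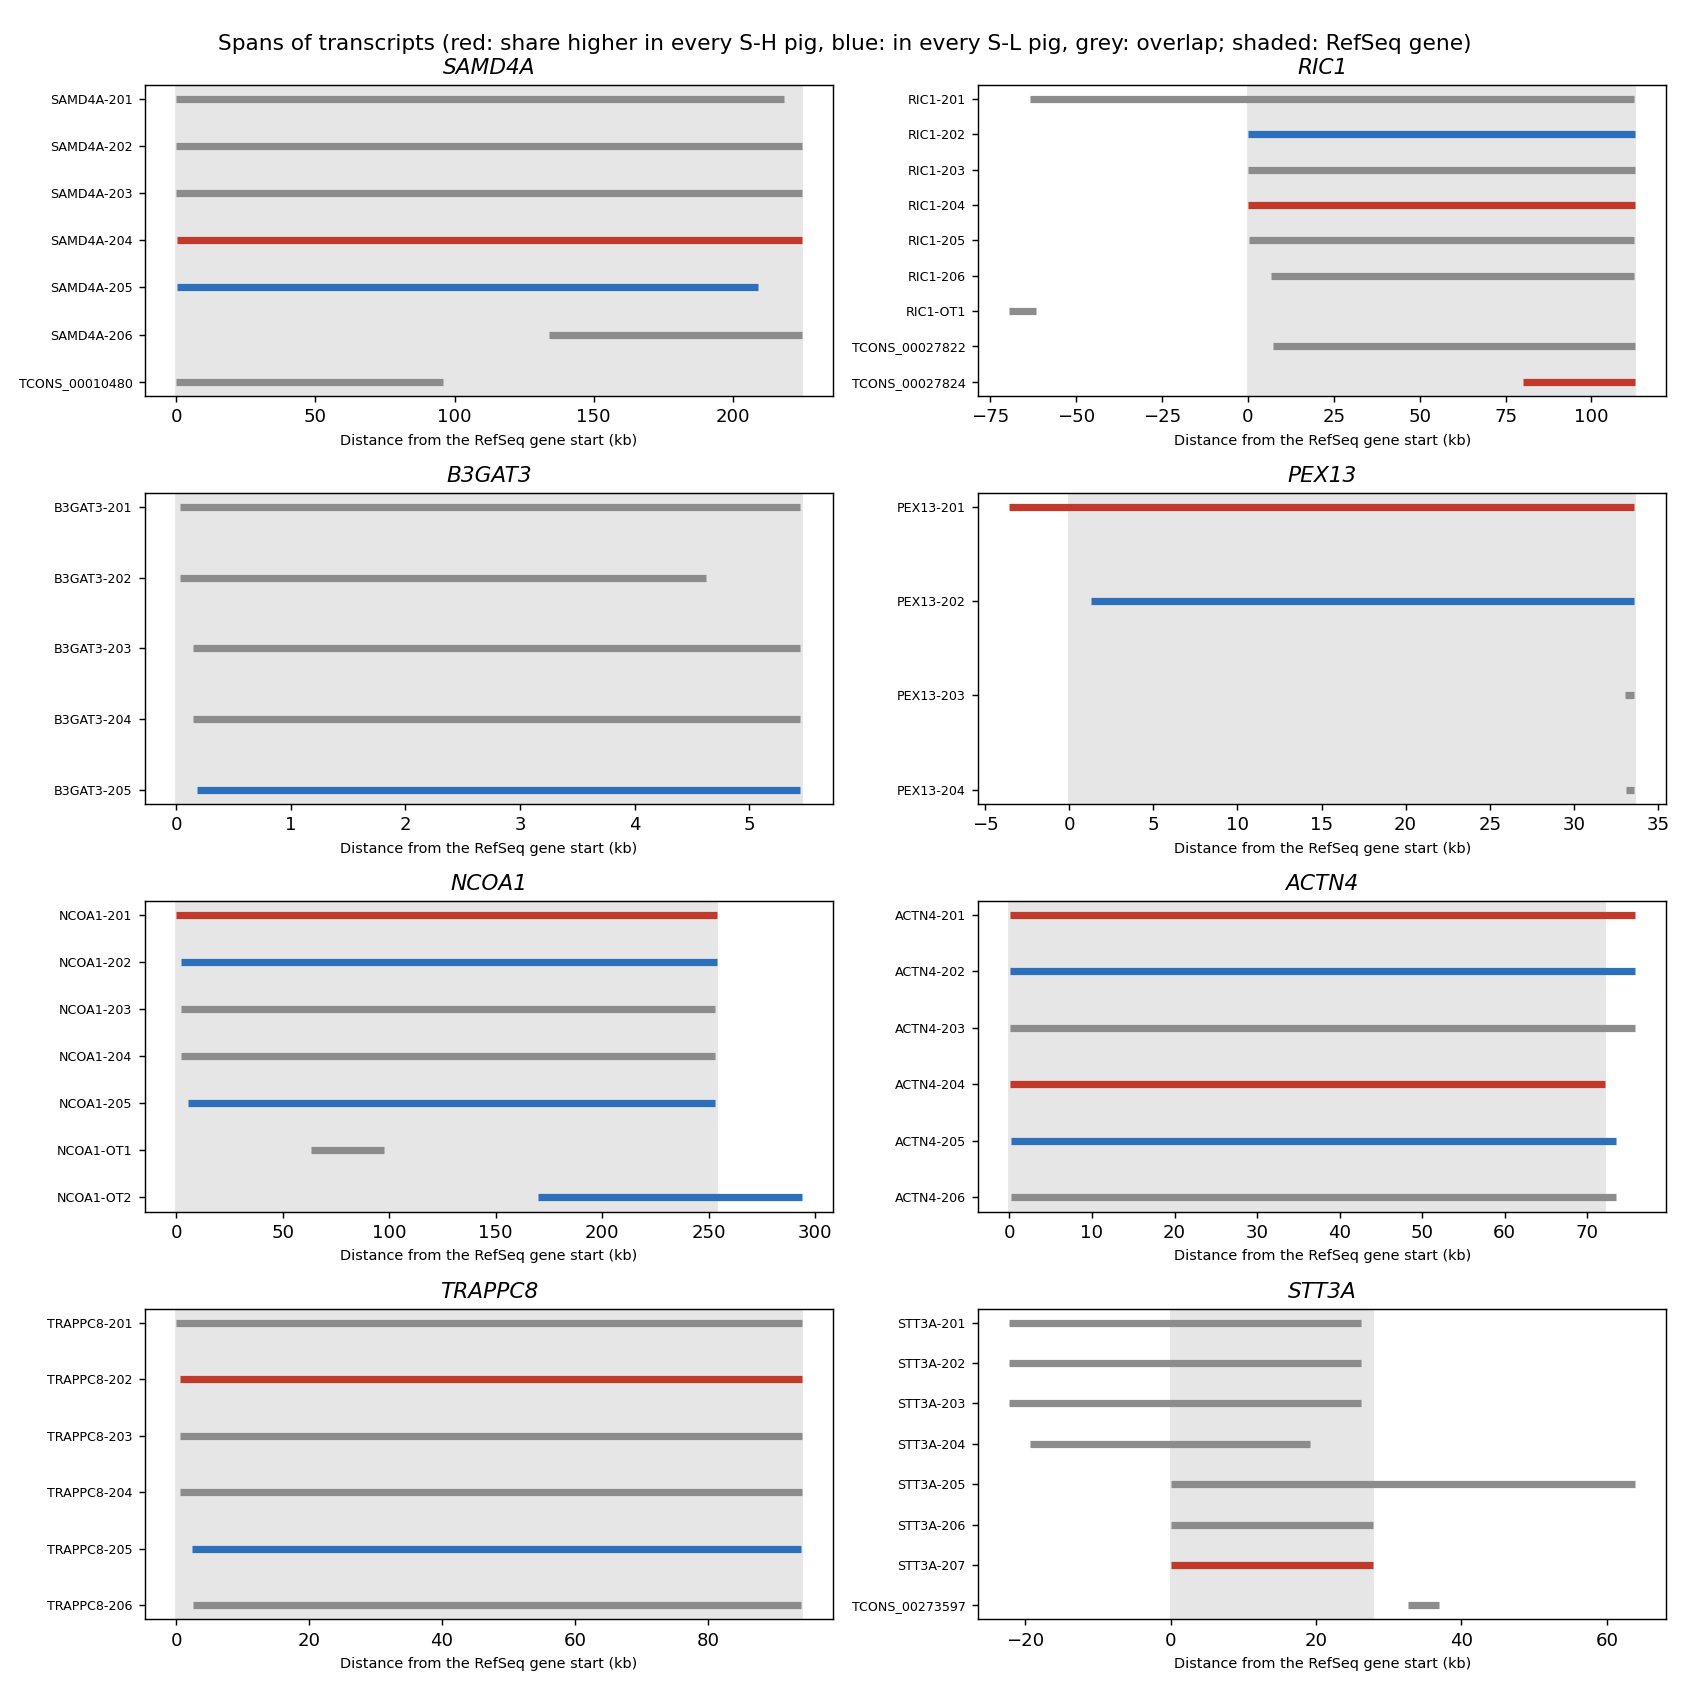
Span of every transcript of the 8 genes (horizontal bars) as distance from the start of the RefSeq gene (x axis, kb), with the RefSeq gene shaded. Red bars had a higher share in every S-H pig, blue bars in every S-L pig, and grey bars overlapped. In RIC1 the red and blue bars 204 and 202 coincide, while in ACTN4 the red bar 204 ends inside the RefSeq gene and the blue bars, and the red bar 201, end beyond it.

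Set against RefSeq, 15 of the 52 transcripts reached over 1000 bases beyond their gene, and in 3 genes these transcripts followed the groups. How many of all genes had this pattern was not computed, so nothing is read from that count. In ACTN4, every transcript but ACTN4-204 ran past the end of the RefSeq gene, by 1338 or 3610 bases, into the next gene, CAPN12. They held 46.8%, 38.6% and 38.7% of ACTN4 in S-H and 71.1%, 95.1% and 94.3% in S-L. In PEX13, transcripts beyond the RefSeq bounds held 97.7% ± 3.10 (SD, n = 3) of the gene among S-H pigs and were listed at 0 in S-L. In NCOA1 the share beyond the bounds was that of NCOA1-OT2, 6.49% ± 0.564 in S-H and 13.9% ± 4.49 in S-L (SD, n = 3). STT3A-203 started 22193 bases before the RefSeq gene, inside EI24, so that its span covers both genes. The table lists EI24-201 on its own at 0.673, 1.72 and 2.53 FPKM in S-H and 2.32, 2.88 and 2.07 FPKM in S-L. Shares beyond the STT3A bounds were 14.0%, 57.3% and 60.9% in S-H and 99.7%, 39.7% and 99.8% in S-L, with overlap. The assembled RIC1-OT1 and, at STT3A, TCONS_00273597 lie wholly outside their RefSeq genes, inside ERMP1 and CHEK1. RIC1-201 starts 63278 bases before the RefSeq gene, inside ERMP1. All of these count in the gene sums and shares given here.

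Reads in stretches shared by neighbouring genes are uncertain, as the use of strand in the counting was not stated. The gene sum of HNRNPL, a splicing factor with 3 transcripts listed across the ACTN4 span, was 28.7, 25.0 and 37.5 FPKM in S-H and 29.1, 26.0 and 30.5 FPKM in S-L, with overlap (log2 fold change 0.07, SE 0.24), above ACTN4 in every pig. The overlapping transcripts of the other genes with a symbol were low: those of ERMP1 at RIC1 averaged 1.58 FPKM, PUS10 at PEX13 0.145 FPKM, CAPN12 0.0854 FPKM and CHEK1 at STT3A 0.281 FPKM. Their part in the shares was not tested.

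The 8 genes differed in how alike the pigs of 1 group were. Over the 6706 genes scored, the median distance between transcript compositions (the percent of the gene sum that has to move to turn one pig into another) was 13.7% within groups and 14.1% between groups. For PEX13 the median was 0.532% within and 99.8% between, for NCOA1 11.4% and 55.3%, and for ACTN4 18.1% and 60.0%. For these 3 the smallest distance between groups exceeded the largest within either group. RIC1 (40.5% within, 76.7% between), TRAPPC8 (43.3% and 91.2%) and B3GAT3 (50.8% and 100%) had wide spreads within groups too. In SAMD4A the medians were 26.9% and 28.6%, and in STT3A 48.9% and 46.5%, so pigs of 1 group were about as far apart as pigs of different groups. More than 1 largest transcript over the 6 pigs was common in the series, in 47.9% of the genes scored.

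The largest absolute difference of mean share had a median of 8.55 percentage points and a 90th percentile of 30.2 over those genes. PEX13 had the largest value of all, TRAPPC8 ranked 13, B3GAT3 21, RIC1 49, STT3A 154, NCOA1 171 and ACTN4 191. SAMD4A ranked 1395, inside the bulk of the distribution. As they were chosen for such differences, the ranks are no test.

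**Figure D5:**
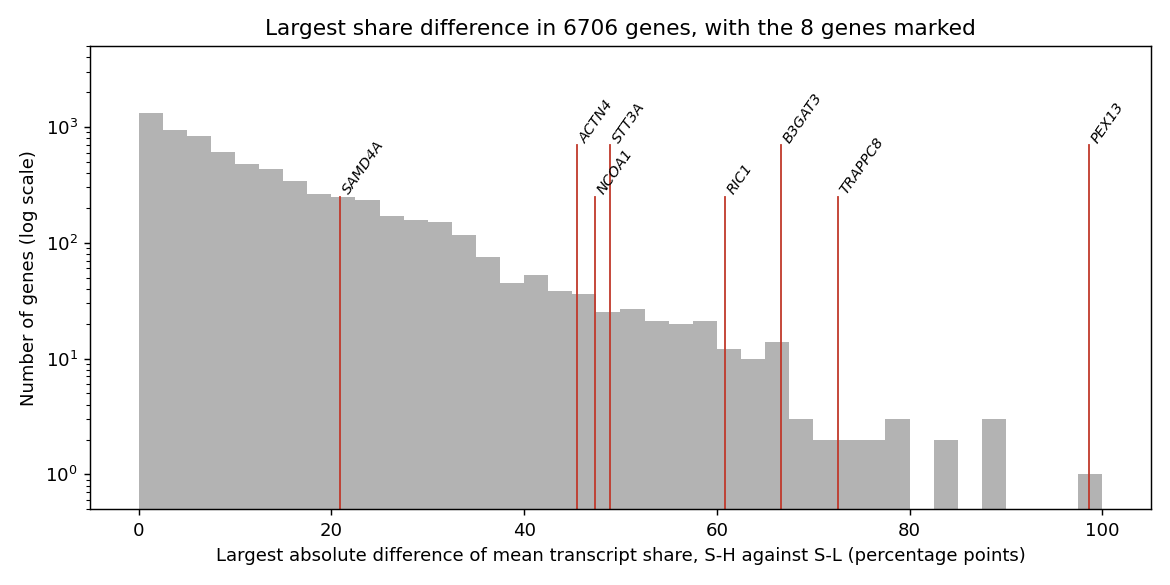
Number of genes (y axis, log scale) by their largest absolute difference of mean transcript share between S-H and S-L (x axis, percentage points) for the 6706 genes scored, with the 8 genes marked by red lines. PEX13 lies alone at the right end, 6 genes lie between 45.5 and 72.5 percentage points, and SAMD4A lies at 20.9 within the main body.

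A switch of the same kind was scored in 50 of the 6706 genes (0.746%), of which SAMD4A, RIC1, PEX13, NCOA1 and TRAPPC8 were 5. The scoring required that the switched transcript itself was called and that a partner moved the opposite way. Neither share could overlap, and the gene log2 fold change had to be under 0.5 in size. ACTN4 was not among the 50, as its switched transcript, ACTN4-204, was not called. The most alike genes outside the 8, by the size of the share difference over the 6 pigs, were TUSC3, WDR48, SIAE, EPB41L4A and SENP2. WDR48, a cofactor of deubiquitinating enzymes, had WDR48-203 at 25.6%, 13.3% and 24.3% of the gene in S-H and 99.2%, 100% and 99.0% in S-L. WDR48-201 made up all of the rest, with a difference of 78.3 percentage points. SIAE, a sialic acid esterase, had SIAE-201 at 20.6%, 21.8% and 13.9% in S-H and 93.4%, 94.1% and 95.5% in S-L. In both genes pigs of 1 group were close together and the groups were far apart. SENP2, a SUMO protease, had SENP2-202 at 83.0%, 71.1% and 81.8% in S-H and 8.11%, 12.0% and 13.5% in S-L. EPB41L4A had EPB41L4A-201 at 61.2%, 73.3% and 70.4% in S-H and listed at 0 in S-L. TUSC3 had TUSC3-206 at 0%, 16.6% and 0% in S-H and 94.1%, 96.8% and 93.9% in S-L, at a gene mean of 1.10 FPKM. Its compensating TUSC3-205 differed by only 43.4 percentage points against the -89.4 of TUSC3-206. TUSC3 is also among the oligosaccharyltransferase genes followed with STT3A below. These genes were picked by the same contrast, so their shares are descriptions as well.

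The genes known to work with the 8, or related to them by descent, were followed at gene level. The choice of the 8 did not use the levels of these partners, though the lists were drawn up with earlier results of these data known. Of 119 genes in 8 lists, 102 were in the table and 98 were tested. None was called, beside 1.26% of all genes tested, and the lowest adjusted p by limma with Benjamini-Hochberg adjustment was 0.600. With unadjusted p under 0.05 there were 6 (FAM20B, PEX3, PEX11A, PPARG, ACTN3 and PDLIM7), which is 6.12% of those tested beside 7.88% of all genes. Between the groups 17 did not overlap (17.3% beside 14.4%), and 69 had a log2 fold change above 0 (70.4% beside 73.1% of all genes), with a median of 0.12. Because the median of all genes was itself above 0, each list is given below against that median of 0.21.

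Of the 11 peroxisome genes tested with PEX13, most of them for protein import, 6 exceeded the all-gene median on the FPKM scale and 6 did so with size factors, the list's median was 0.30, and 3 did not overlap, whereas PEX13 itself was at -0.19. PEX2, a ubiquitin ligase of the import machinery, had 0.19 (SE 0.24) and PEX14, the docking partner of PEX13, 0.21 (SE 0.23). PEX3, needed to place membrane proteins, was at 9.28, 5.96 and 5.88 FPKM in S-H and 5.33, 4.14 and 2.88 FPKM in S-L (0.77, SE 0.31, adjusted p by limma 0.621). PEX11A, which acts in peroxisome division, was at 6.13, 6.49 and 4.27 FPKM against 3.42, 3.14 and 1.75 FPKM (1.03, SE 0.32, adjusted p by limma 0.600). Each S-H pig was above each S-L pig for both, but neither was called. PEX11A missed the call narrowly, with an unadjusted p by limma of 0.0100164 against the threshold of 0.01. Adipocyte markers were higher in S-H as well (462 to 1339 FPKM summed against 256 to 380), and their part in this was not tested.

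The partners of ACTN4 lay below the all-gene median in all but 2 of 14, under each of the 3 scalings, with a median of -0.09. PDLIM3, a Z-disc adaptor and the most abundant, was at 1214, 1216 and 2114 FPKM in S-H and 1275, 1255 and 1469 FPKM in S-L. ACTN3, the alpha-actinin of fast fibres, was at 126, 133 and 108 FPKM in S-H and 163, 229.6 and 267 FPKM in S-L (-0.82, SE 0.26, adjusted p by limma 0.600). PDLIM7, a relative of PDLIM3, was at 11.2, 15.2 and 18.7 FPKM against 19.9, 23.4 and 29.9 FPKM (-0.71, SE 0.27, adjusted p by limma 0.621). Every S-L pig was above every S-H pig for ACTN3 and PDLIM7, neither of which was called. ACTN2, the alpha-actinin of all fibres, had -0.09 (SE 0.24) and overlapped, as did PDLIM3.

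Among receptors and coactivators around NCOA1, 4 of 19 exceeded the all-gene median, with a list median of 0.09. PRMT1, an arginine methyltransferase, had 0.11 (SE 0.24), NCOA4 0.10 (SE 0.24) and the glucocorticoid receptor NR3C1 0.13 (SE 0.34). PPARG, the nuclear receptor of fat cell differentiation, was at 12.8, 5.70 and 4.05 FPKM in S-H and 3.46, 3.69 and 2.18 FPKM in S-L, with no overlap (1.11, SE 0.42). Its unadjusted p of 0.0242 and adjusted p of 0.604 by limma did not pass. LW63 was far above the other S-H pigs, and it was also the highest S-H pig for 8 of the 9 adipocyte markers found, from 564 against 438 and 239 FPKM for FABP4 to 366 against 117 and 96.3 FPKM for ADIPOQ. The exception was PCK1, at 0.219, 0.261 and 2.72 FPKM.

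The lists of the secretory pathway lay around the all-gene median. For STT3A, 5 of 9 oligosaccharyltransferase genes exceeded it, with a list median of 0.21. The paralogous catalytic subunit STT3B was at 52.3, 47.0 and 56.5 FPKM in S-H and 46.8, 43.7 and 45.3 FPKM in S-L (0.19, SE 0.21), above STT3A in every pig. DAD1 had 0.37 (SE 0.23), which turned to -0.63 with Ensembl transcripts with a symbol only, and RPN2, another subunit, 0.32 (SE 0.26). For TRAPPC8, 6 of 11 exceeded the median, and the subunits TRAPPC5 (-0.21, SE 0.24), TRAPPC13 (0.20, SE 0.25) and TRAPPC4 (0.26, SE 0.26) lay within 1 SE of 0. For RIC1, 3 of 6 exceeded it. Its target RAB6A was at 43.0, 37.7 and 39.3 FPKM in S-H and 32.8, 36.5 and 33.4 FPKM in S-L, without overlap (0.22, SE 0.21), while the adaptor BICD2 had 0.03 (SE 0.37) and the golgin GOLGA5 0.38 (SE 0.25). For B3GAT3, 7 of 12 exceeded the median, with a list median of 0.24. Its most abundant partners were the glycosyltransferases CSGALNACT2 (0.06, SE 0.22), B3GALT6 (-0.18, SE 0.25) and EXT1 (0.08, SE 0.31). FAM20B, the kinase of the linker xylose, was at 4.34, 3.21 and 3.77 FPKM against 2.15, 2.59 and 2.12 FPKM (0.69, SE 0.26, adjusted p by limma 0.600), without overlap.

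Of the deadenylation and decapping factors with which SAMD4A works, 3 of 16 exceeded the all-gene median, with a list median of -0.01. DDX6, a helicase of translational repression, had 0.09 (SE 0.24), the deadenylase CNOT7 -0.30 (SE 0.23) and the scaffold CNOT1 0.01 (SE 0.24). Of 48 regulators of splicing and of 3' end choice, 39 were in the table, 37 were tested and none was called by limma or had an unadjusted p under 0.05. Their log2 fold changes ran from -0.67 to 0.70 with a median of 0.05, 5 exceeded the all-gene median under each of the 3 scalings, and 3 did not overlap between the groups.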

How the data were processed

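The authors prepared ribosomal RNA-depleted, strand-specific libraries, filtered the reads, mapped them to the pig genome Sscrofa11.1 with HISAT2 (named in the submitters' processing notes) and assembled and quantified transcripts per pig with StringTie. Versions and the use of strand were not given in the sources used here. StringTie divides reads among overlapping transcripts of a gene, so the value of 1 transcript depends on that division. The authors deposited FPKM, except for 21104 Ensembl transcripts without a symbol, whose deposited values are TPM. This was found from the values, and those transcripts were put on the FPKM scale with 1 factor per pig, chosen so that all transcripts of a pig reach the fixed TPM total. None of the transcripts of the 8 genes is among them. The number of value columns of no sample was 0.

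Groups came from the labels. Transcripts with the same gene ID and symbol were summed to genes. Transcripts and genes averaging 0.1 FPKM or more were fitted on log2(FPKM + 0.1) with limma 3.58.1 (variance trend, R 4.3.3), and called where the unadjusted p was below 0.01 and the log2 fold change 1 or more in size, the thresholds of the study. limma took the place of edgeR because FPKM are not counts. The pseudocount makes a fold change understate that of low transcripts. Shares and distances were computed in Python 3.11.15 with pandas 2.3.3 and numpy 2.4.6, and figures with matplotlib 3.10.9. The fit was tested on simulated data.

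The 8 genes, the partner lists and the other lists were chosen with earlier results of these data known. Named were all 8 genes with every transcript, the 3 most abundant genes of each partner list with any called, and the 5 most alike genes. FAM20B, PEX11A, PPARG, PDLIM7, CNOT6L, XYLT2, FABP4, ADIPOQ and PCK1 were named after their values were seen, as were HNRNPL, EI24 and the overlapping genes. RefSeq (Sscrofa11.1) gave gene bounds and numbers of transcripts. Alternatives were other pseudocounts, minimum levels and scalings, limma without a trend, Ensembl transcripts with a symbol only, an adjusted p, leaving out each pig, and summed spans.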

Additional observations from a re-analysis of the deposited data

How the results depend on the processing

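The 503 transcripts called fell to 227 with log2(FPKM + 1), 181 with a mean of at least 1 FPKM, 263 with Ensembl transcripts with a symbol only, and 34 at an adjusted p below 0.05, and ran from 513 to 648 when 1 pig was left out. The 153 genes called fell to 71 with log2(FPKM + 1) and to 0 at an adjusted p below 0.05, and ran from 88 (without LW90) to 232 (without LW82). Of the 13 transcripts of the 8 genes called, 8 passed an adjusted p below 0.05, and leaving out 1 pig gave 11 to 13. The 8 genes were chosen on this contrast, so these numbers and the calls of their transcripts below are descriptions and no test. Over 15 settings 10 of the 13 were called each time. RIC1-202 was called in 9 and lost with log2(FPKM + 0.01) and without any 1 of LW70, LW119, LW82, LW88 and LW90. NCOA1-205 was called in 7 and lost without any 1 of the same pigs, with log2(FPKM + 1), on the TPM scale and without a variance trend. ACTN4-202 was called in 13, lost with log2(FPKM + 1) and not tested with a mean of at least 1 FPKM. Fold changes of transcripts close to 0 in 1 group moved with the pseudocount. That of SAMD4A-205 went from -3.53 to -1.71 with log2(FPKM + 1) and -4.13 with log2(FPKM + 0.01), and that of PEX13-202 from -6.23 to -3.74 and -8.04. Partner genes called went from 0 to 1 with a mean of at least 1 FPKM (PEX11A), 2 on the TPM scale (PPARG and PEX11A) and 0 to 3 when 1 pig was left out: 3 without LW119 (CNOT6L, PPARG and PEX11A) and 3 without LW82 (XYLT2, PEX11A and ACTN3). The RIC1-202 share difference went from -60.8 to -3.97 percentage points when transcripts of the same span, or within 20 bases, were summed, and TRAPPC8-205 went to -41.7 within 20 bases. Leaving out 1 pig, the share differences ran from -26.3 to -18.2 (SAMD4A), -69.4 to -47.6 (RIC1), 50 to 100 (B3GAT3), -99.9 to -97.9 (PEX13), 42.4 to 53.9 (NCOA1), 41.4 to 53.4 (ACTN4), -84.8 to -65.0 (TRAPPC8) and 33.8 to 59.0 (STT3A). None of these share differences changed sign under the settings run, while the gene log2 fold change of DAD1 went from 0.37 to -0.63 with Ensembl transcripts with a symbol only. No paired analysis was possible because the 2 groups are different pigs with no pairs. With 3 pigs a group and unknown depth, zeros at transcript level cannot be told apart from failed estimates.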
